A study of Mus musculus with 36 samples.

Results

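Notch1, Tcf7, Lef1, Bcl11b and Cd3e are genes that mark the start of the T lineage, and their accessible chromatin was followed across blood stem and progenitor cells of the mouse. Peaks from every library were joined into 1 region wherever they shared 1 bp or more, and a region was given to a gene when its centre lay nearest to a transcription start site (TSS) of that gene among all protein-coding TSSs. Of the 105005 merged regions, 46 belonged to these 5 genes: 12 to Notch1, 8 to Tcf7, 16 to Lef1, 9 to Bcl11b and 1 to Cd3e.

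The study asked how aging alters hematopoietic cells, and profiled open chromatin by ATAC-seq, which tags accessible DNA with a transposase, in 36 libraries of 20000 sorted bone marrow cells each. All mice were C57BL/6, 10 weeks old (young) or 20 months old (aged). Hematopoietic stem cells (HSCs) had 4 libraries per age, and the multipotent progenitors MPP1, MPP2 (megakaryocyte/erythroid-biased), MPP3 (myeloid-biased) and MPP4 (lymphoid-primed) and the common lymphoid progenitors (CLPs), the granulocyte-macrophage progenitors (GMPs) and the progenitors of megakaryocytes and erythrocytes (MEPs) had 2 per age. The marrow of several mice was pooled before sorting, so the p-values below measure the spread between libraries that may share a pool.

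Notch1 is a cell-surface receptor whose cleaved intracellular part joins the DNA-binding protein RBPJ, and its signal in the thymus starts T cell development. Tcf7 (which encodes TCF-1) and Lef1 encode related DNA-binding proteins, and Tcf7 is a known target of Notch signals in early thymocytes. Bcl11b encodes a zinc-finger factor required for commitment to the T lineage, and Cd3e encodes a subunit of the CD3 complex that carries the signal of the T cell receptor.

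The files used here list peaks, with no read counts. A call in a library means that at least 1 of its peaks touched the region, and its level was the highest fold enrichment (FE) that the peak caller gave there, the signal at the summit over the local background. Libraries held 9581 to 63288 peaks, with a median of 33200. GMP libraries held the most (52576 to 63288) and MEP libraries the fewest (9581 to 11041). GMP libraries also held the narrowest peaks, with a smallest width of 132 to 139 bp, against 163 to 191 bp in the other fractions. HSC replicates 1 and 2, and likewise 3 and 4, shared more regions within an age (Jaccard index 0.679 to 0.703) than replicates of different pairs did (0.620 to 0.666). For the Tcf7 region 35.6 kb upstream and the Lef1 promoter, the age difference in HSC level is also given within these pairs.

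The labels were checked at the region over or nearest to the TSS of each marker gene. The myeloid genes Mpo, Elane, Cebpe, Prtn3 and Ctsg had 4 or 5 of 5 called in each GMP library and 1 of 5 in each HSC library. Of 6 CLP genes, CLP libraries had 3 to 6 called (median 4.00), GMP libraries 4 or 5 (median 5) and HSC libraries 3. Among them Rag1, which cuts the antigen receptor genes together with Rag2, was called in 2 CLP libraries and in no other fraction, whereas Rag2 was called in 1 CLP and 3 GMP libraries. Of 5 MEP genes, MEP libraries had 2 or 3 called, with Gfi1b in none and Gata1 in 1 library, against 3 or 4 in HSC, 4 in GMP and 4 or 5 in MPP2 libraries. The CLP and MEP lists therefore did not set these fractions apart. Of 6 HSC genes, HSC libraries had 3 or 4 called, GMP libraries 4 or 5 and CLP libraries 2 to 4. This list did not set HSCs apart either, and its genes Mecom and Fgd5 were called at the TSS in no HSC library. Of 10 T cell genes, CLP libraries had 3 to 7 called (median 6.00), GMP libraries 4 or 5, HSC libraries 2 and MEP libraries 0, and those of Cd4 and Cd8a were called in no CLP library. The 2 called in HSCs, Cd3d and Cd3g, were read at a distance of 4400 and 5755 bp from their TSSs and called in 32 libraries each. Cd3g had no region of its own and as many calls as Cd3d in each fraction. The same region may thus be counted for both genes, also in the counts of CLPs and GMPs. Only 5 of the 10 T cell genes had a region over the TSS. GMP libraries also had 3 to 5 of 6 NK and innate lymphoid genes and 3 or 4 of 5 B cell genes called, where 2 of these 6 and 0 of these 5 had a region over the TSS. The part of other cells in the results below was not tested.

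The 13 regions below were chosen from those that differed between fractions or were called most widely, together with the Notch1 TSS, the Tcf7 promoter and the only Cd3e region, and other regions that differed are not shown. Each sequence is the stretch of 201 bp around the median summit, on the plus strand of mm10, read from the GRCm38 genome of RefSeq and credited to it. The Notch1 TSS sequence is limited to the 141 bp upstream of the transcript. Capitals mark matches on either strand to the TCF/LEF motif CTTTGAT, the RUNX motif TGTGGTT, the E protein motif CAGCTG, the PU.1/ETS motif GAGGAAGT or the C/EBP motif TTGCNNAA, where N is any base.
Notch1 TSS, chr2:26503823-26503963: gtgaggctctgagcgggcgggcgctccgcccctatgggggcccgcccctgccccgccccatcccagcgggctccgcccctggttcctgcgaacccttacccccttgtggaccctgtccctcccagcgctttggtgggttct
Notch1 intron, 10.7 kb downstream of the TSS, chr2:26493010-26493210: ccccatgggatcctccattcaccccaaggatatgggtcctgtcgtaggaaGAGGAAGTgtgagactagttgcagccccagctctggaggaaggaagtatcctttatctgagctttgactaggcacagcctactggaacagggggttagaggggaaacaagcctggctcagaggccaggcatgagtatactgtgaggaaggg
Tcf7, 35.6 kb upstream, chr11:52318536-52318736: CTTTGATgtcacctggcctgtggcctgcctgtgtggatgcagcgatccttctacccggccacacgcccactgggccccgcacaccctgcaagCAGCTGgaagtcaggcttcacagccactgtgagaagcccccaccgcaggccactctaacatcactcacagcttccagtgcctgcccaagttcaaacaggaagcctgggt
Tcf7, 22.5 kb upstream, chr11:52305360-52305560: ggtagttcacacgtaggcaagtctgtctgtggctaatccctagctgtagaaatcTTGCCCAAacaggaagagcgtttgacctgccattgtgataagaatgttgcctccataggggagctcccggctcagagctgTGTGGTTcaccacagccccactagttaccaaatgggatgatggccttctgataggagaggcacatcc
Tcf7 promoter, chr11:52283260-52283460: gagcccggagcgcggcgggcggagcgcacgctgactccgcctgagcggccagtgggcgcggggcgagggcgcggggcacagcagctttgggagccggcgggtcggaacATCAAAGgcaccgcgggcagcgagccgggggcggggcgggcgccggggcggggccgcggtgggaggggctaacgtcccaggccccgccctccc
Tcf7 intron, 16.8 kb downstream, chr11:52265699-52265899: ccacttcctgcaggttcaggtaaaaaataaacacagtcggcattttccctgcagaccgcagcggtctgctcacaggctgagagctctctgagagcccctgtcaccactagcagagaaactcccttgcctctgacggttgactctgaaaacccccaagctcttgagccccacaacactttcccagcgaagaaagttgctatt
Lef1, 96.1 kb upstream, chr3:131014449-131014649: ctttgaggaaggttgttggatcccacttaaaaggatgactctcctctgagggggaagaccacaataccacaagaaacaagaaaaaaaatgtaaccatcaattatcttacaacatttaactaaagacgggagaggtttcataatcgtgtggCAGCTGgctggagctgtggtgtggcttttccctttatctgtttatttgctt
Lef1, 90.7 kb upstream, chr3:131019701-131019901: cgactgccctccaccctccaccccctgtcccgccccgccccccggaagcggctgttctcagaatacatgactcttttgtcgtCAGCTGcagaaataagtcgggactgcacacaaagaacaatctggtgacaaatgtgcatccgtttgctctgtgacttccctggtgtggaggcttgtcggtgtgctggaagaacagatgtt
Lef1, 32.2 kb upstream, chr3:131078115-131078315: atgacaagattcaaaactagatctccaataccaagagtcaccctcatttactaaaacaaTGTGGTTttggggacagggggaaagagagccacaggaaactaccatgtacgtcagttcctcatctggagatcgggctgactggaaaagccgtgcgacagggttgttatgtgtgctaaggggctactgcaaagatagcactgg
Lef1, 25.1 kb upstream, chr3:131085294-131085494: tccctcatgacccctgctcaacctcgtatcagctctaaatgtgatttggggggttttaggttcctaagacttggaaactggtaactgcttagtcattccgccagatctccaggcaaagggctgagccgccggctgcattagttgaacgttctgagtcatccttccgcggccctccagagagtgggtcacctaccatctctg
Lef1 intron, 5.3 kb downstream, chr3:131118031-131118231: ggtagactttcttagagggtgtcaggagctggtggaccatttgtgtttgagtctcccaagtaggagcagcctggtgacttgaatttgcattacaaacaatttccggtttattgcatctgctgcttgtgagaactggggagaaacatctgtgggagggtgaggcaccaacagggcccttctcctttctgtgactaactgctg
Bcl11b, 84.9 kb upstream, chr12:108088372-108088572: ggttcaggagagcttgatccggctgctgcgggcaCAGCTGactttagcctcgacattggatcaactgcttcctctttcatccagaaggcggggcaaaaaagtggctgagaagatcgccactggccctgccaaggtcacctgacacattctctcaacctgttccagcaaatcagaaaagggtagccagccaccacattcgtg
Cd3e, 11.3 kb downstream, chr9:44998188-44998388: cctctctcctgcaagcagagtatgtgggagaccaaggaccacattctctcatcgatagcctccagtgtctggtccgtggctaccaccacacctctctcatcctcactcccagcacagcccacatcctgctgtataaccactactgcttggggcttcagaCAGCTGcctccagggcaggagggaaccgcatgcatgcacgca

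The same 201 bp windows of all regions were searched on both strands. CTTTGAT stood in 4 of the 46 member windows (8.70%) and in 2.21% of 104825 catalogue windows. The member windows were the Tcf7 promoter, the Tcf7 regions 31.5 and 35.6 kb upstream and the Lef1 region 24.3 kb upstream. CAGCTG was found in 11 member windows (23.9%) against 14.6% of the catalogue, TGTGGTT in 8 (17.4%) against 11.3%, GAGGAAGT in 4 (8.70%) against 8.44% and TTGCNNAA in 7 (15.2%) against 13.2%. The RBPJ motif GTGGGAA was in 3 member windows (6.52%, catalogue 4.66%), the GATA motif AGATAAG in 1 (2.17%, catalogue 3.85%) and the CTCF motif AGGGGGC in 2 (4.35%, catalogue 5.52%). Matches to different motifs may overlap and were counted separately. A match describes the letters only.

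Of the 46 regions, 4 were promoters (within 1000 bp upstream or 100 bp downstream of a TSS), 18 lay in introns and 24 were intergenic. Their median width was 305 bp (336 bp over the catalogue) and their median distance from the TSS 23.4 kb (18.7 kb over the catalogue). The number of libraries with a call had a median of 4.50 per member region, a little below that of the catalogue. Of the members 11 (23.9%) were called in a single library, against 18.4% of the catalogue. Calls in at least 31 libraries were found for 2 members (4.35%), against 13% of the catalogue. With the TSSs of all gene types counted, 26 regions stayed with the 5 genes. The Lef1 regions 96.1, 90.7 and 53 kb upstream then lay nearer to A430072C10Rik, the Tcf7 region 16.8 kb downstream to Gm26551 and the Notch1 region 20.3 kb downstream to Mir6996. The genes differed in how widely their regions were called. Bcl11b had 5 of its 9 regions called in a single library, whereas the median Lef1 region was called in 13 libraries.

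No member region was called in any of the 4 MEP libraries, whose calls covered 9.35% ± 0.564 (SD, n = 4) of the catalogue. GMPs had the most member regions called, 49.5% ± 7.61 (SD, n = 4). The other fractions lay close together, with 24.2% ± 4.26 (SD, n = 8) for HSCs, 29.9% ± 4.12 for MPP1, 30.4% ± 1.77 for MPP2, 29.9% ± 2.08 for MPP3, 28.8% ± 2.74 for MPP4 and 28.8% ± 3.71 for CLPs (SD, n = 4 each). Over the whole catalogue the shares were 54.8% in GMPs, 29.5% in HSCs and 29% to 33.2% in MPPs and CLPs, so the members lay furthest below the catalogue in MEPs, HSCs and GMPs. When only the 27087 strongest peaks of each library were kept and MEPs were left out, GMPs had 14.7% ± 2.08 (SD, n = 4) of the member regions, below HSCs (20.1%), MPP1 (23.4%), MPP2 (23.4%), MPP3 (25.5%), MPP4 (25%) and CLPs (21.7%). Of all regions each fraction then had 25.1% to 25.4%. GMP and CLP members (SD 3.07 in CLPs) lay below the catalogue by more than their SD. Those of HSCs (SD 5.29), MPP1 and MPP2 (SD 2.74 each) lay below it by less than their SD, and those of MPP3 and MPP4 lay at it. At 9581 peaks per library, when 9.08% or 9.09% of all regions were called in each fraction other than MEPs, MPP4 had 13.6% ± 1.09 (SD, n = 4) and HSCs 4.62% ± 1.81 (SD, n = 8) of the member regions, and CLPs lay near the catalogue at 9.78% ± 1.26 (SD, n = 4).

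**Figure D1:**
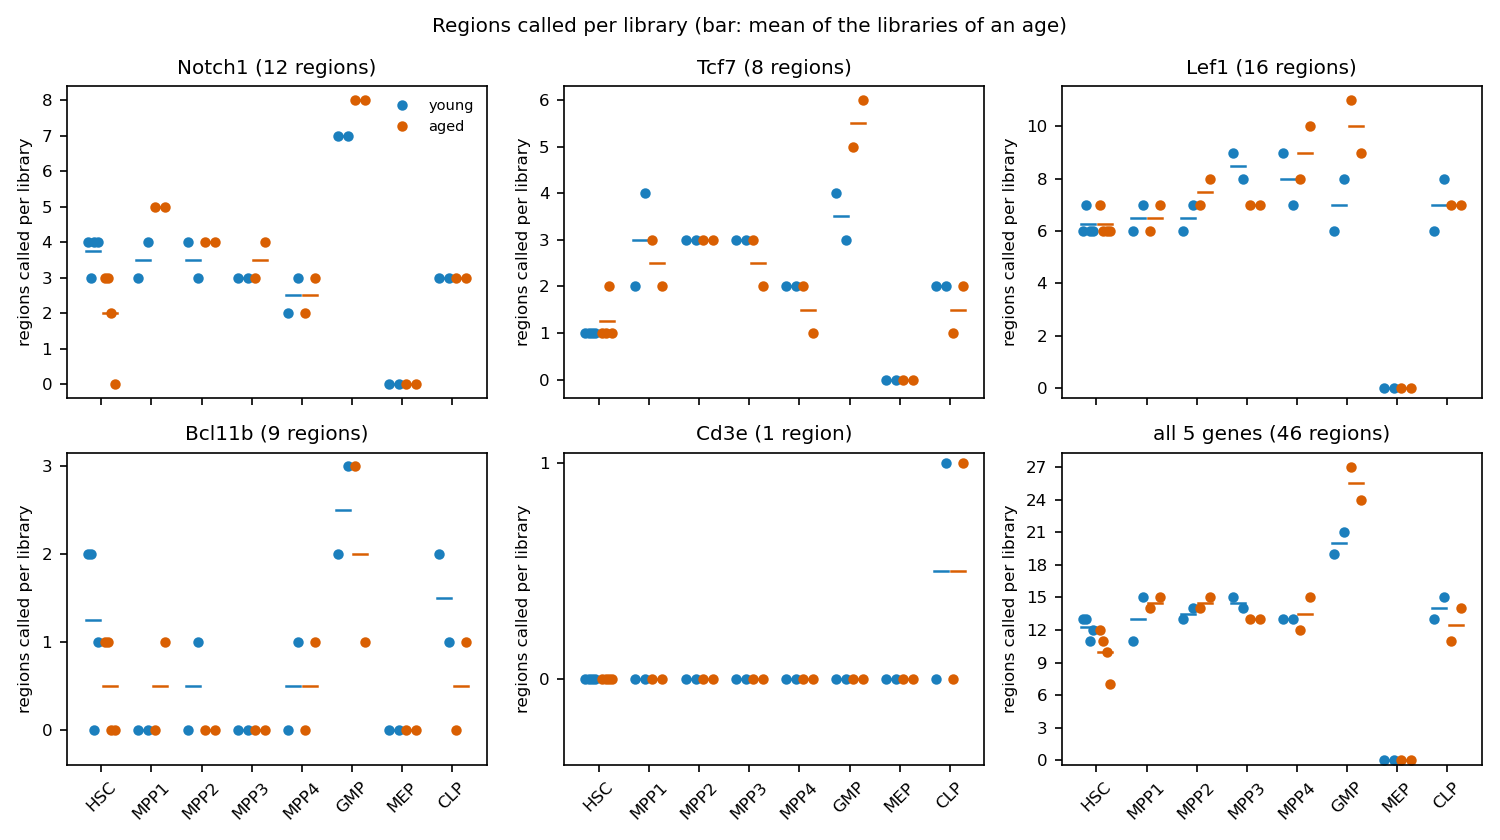
Number of member regions called in each library (y axis), by gene and by fraction (x axis), for young and aged mice; each point is 1 library and each bar the mean of an age. GMP libraries lie highest for Notch1 (7 or 8 regions), MEP libraries lie at 0 for every gene, and the single Cd3e region is called in 2 CLP libraries.

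**Figure D2:**
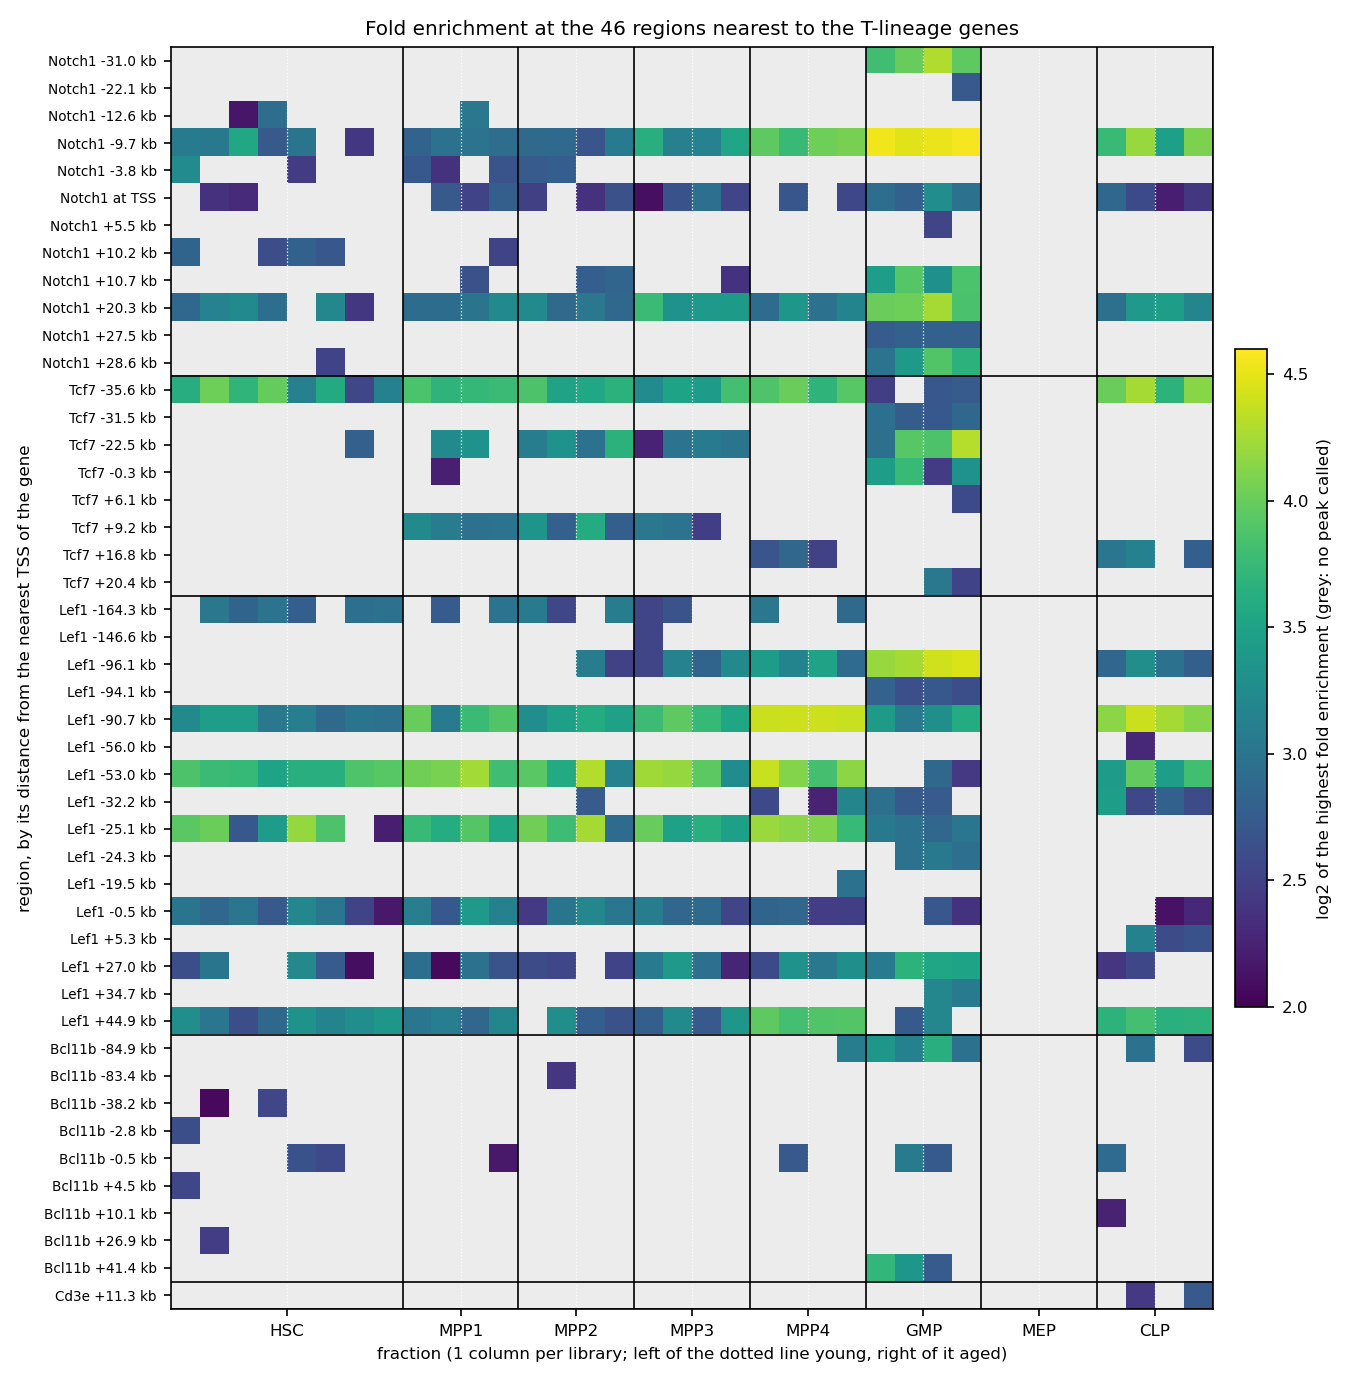
Fold enrichment, as log2 by colour, of the 46 member regions (rows) in the 36 libraries (columns, ordered by fraction and age); grey cells have no call. A small set of Notch1, Tcf7 and Lef1 regions is called in nearly all libraries other than MEP, and a second set, 11 regions, is called in GMPs alone (23.9% of the members, against 24.1% of the catalogue).

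Notch1, the receptor, was accessible at its TSS and at a pair of regions outside it in most fractions. The TSS region (chr2:26503547-26504110, gene at chr2:26457903-26503822, minus strand) was called in 22 libraries, in all GMP, MPP3 and CLP libraries but in only 2 of 8 HSC libraries. Its level was low throughout, with FE from 4.31 to 9.71. The regions called in the most libraries, 30 each, lay 9.7 kb upstream (chr2:26513194-26513787) and in an intron 20.3 kb downstream (chr2:26483156-26483901).

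In the upstream region the FE was 23.3, 22.3, 23.0 and 23.7 in the young and then the aged GMP libraries. In MPP4 it was 15.5, 13.5, 16.3 and 16.8, and in CLPs 13.5, 18.4, 11.1 and 17. HSC libraries had 8.38, 8.31, 11.8 and 6.62 in young mice and 7.99 and 5.35 in 2 of the 4 aged libraries. As deposited, GMPs lay above all other fractions, MPP4 and CLPs overlapped each other, and all HSC values except the young one of 11.8 lay below all MPP4 and CLP values. The lead of GMPs depended on the scale, since their FE was higher in general: over the 11159 regions called in all libraries outside MEPs the median FE of a library was 16.5 to 18.4 in GMPs and 10.6 to 13.6 in the other fractions. Divided by this median, the upstream region stood at 1.25 to 1.41 in GMPs, 0.997 to 1.42 in MPP4 and 1.03 to 1.53 in CLPs, which overlapped. The intronic region had FE of 14.5 to 19 in GMPs and 5.35 to 13.7 elsewhere. After the same division GMPs (0.832 to 1.04) overlapped MPP3 (0.741 to 1.13), CLPs (0.691 to 1.02), HSCs (0.453 to 0.858) and MPP1 (0.621 to 0.842).

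Of the 9 other Notch1 regions 6 were called in GMPs and 3 in no GMP library, where 73246 of the 105005 regions of the catalogue were called in GMPs. Of all 46 members 11 (23.9%) were called in GMPs alone, which was so of 24.1% of the catalogue. The region 31 kb upstream (chr2:26534630-26534951) was called in the 4 GMP libraries and in no other, with FE of 14, 15.9, 19.6 and 15.5. The intronic region 10.7 kb downstream (chr2:26492927-26493221) had FE of 11.0, 15.1, 9.90 and 14.6 in GMPs, was called in 1 to 2 libraries of MPP1, MPP2 and MPP3, all aged, and in no HSC, MPP4 or CLP library. A separate region 10.2 kb downstream was called in 4 HSC and 1 MPP1 libraries and in no GMP library.

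Tcf7 showed different regions in different fractions. The region 35.6 kb upstream (chr11:52318428-52318869, gene at chr11:52252371-52283014, minus strand) was called in 31 libraries. Its FE in CLPs was 16.1, 19, 12.8 and 17.6, in MPP4 14.8, 16.1, 12.9 and 15.2, and in the 3 GMP libraries with a call 5.58, 6.52 and 6.72. GMP values thus lay below all others except 1 aged HSC library at 5.88, and divided by the library's median they lay below all others (0.338 to 0.385, against 0.499 or more).

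Closer to the gene, 22.5 kb upstream (chr11:52305315-52305660), a region was called in all 4 GMP libraries (FE 7.79, 15.2, 14.7 and 19.8), all 4 MPP3 libraries (4.78, 7.92, 8.45 and 8.02) and all 4 MPP2 libraries (8.60, 10.1, 7.85 and 12.7). It was called in 2 MPP1 libraries and 1 HSC library, and in no MPP4 or CLP library. An intronic region 16.8 kb downstream (chr11:52265643-52265964) had the reverse distribution, with calls only in MPP4 (FE 6.45, 7.25 and 5.66) and CLPs (8.09, 8.82 and 6.84), in 3 of 4 libraries each. Another intronic region, 9.2 kb downstream, was called in all MPP1 and MPP2 and 3 of 4 MPP3 libraries and in none of HSCs, MPP4, GMPs or CLPs. The Tcf7 promoter region (chr11:52283215-52283514), 201 bp from the TSS, was called in the 4 GMP libraries (FE 10.9, 13.5, 5.51 and 10.00) and in 1 MPP1 library, and not in CLPs.

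Lef1 had the most regions, and the one called most widely was highest in MPP4 and CLPs. The region 90.7 kb upstream (chr3:131019414-131020104, gene at chr3:131110471-131224356, plus strand) was called in all 32 libraries outside MEPs, more than any other member region. Its FE was 21, 21.1, 21.2 and 20.8 in MPP4, and 17.7, 21, 19 and 17.5 in CLPs. In HSCs it ran from 7.46 to 10.9, in GMPs from 8.45 to 12.1 and in MPP3 from 11.6 to 15.5. MPP4 and CLP values overlapped each other and lay above every value of the other fractions, also when divided by the library's median (1.39 to 1.85, against 1.36 or less).

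A second region, 96.1 kb upstream (chr3:131013886-131014797), was not called in HSCs or MPP1. It had FE of 18.3, 19, 21.3 and 21.9 in GMPs, 10.8, 9.0, 11.3 and 7.49 in MPP4, 7.25, 9.73, 7.82 and 6.89 in CLPs and 5.84 to 9.45 in MPP3. The highest level here was thus in GMPs, while the highest level 90.7 kb upstream was in MPP4 and CLPs. Divided by the library's median, GMPs still lay highest 96.1 kb upstream, at 1.09 to 1.26 against 0.983 or less. The region 32.2 kb upstream (chr3:131078018-131078469) was called in all 4 CLP libraries (FE 10.9, 5.93, 7.02 and 6.05), 3 MPP4, 3 GMP and 1 MPP2 libraries. The region 25.1 kb upstream (chr3:131085094-131085586) went the other way: it was called in 7 of 8 HSC libraries and in all libraries of MPP1 to MPP4 and GMPs, where FE reached 19, and in no CLP library. An intronic region 5.3 kb downstream (chr3:131118021-131118228) was called in 3 CLP libraries only.

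The Lef1 promoter region (chr3:131111957-131112564) lay 1486 bp from the gene's 5′ end and 233 bp from a second TSS, and was called in 28 libraries with FE of 4.38 to 10.5. It was called in all HSC and MPP libraries but in neither young GMP nor young CLP libraries. In GMPs and CLPs only the aged libraries had a call, with FE of 6.53 and 5.22 in GMPs and 4.38 and 4.94 in CLPs. These were among the weaker peaks of their libraries, at percentiles of FE of 5.73 to 16.3 in GMPs and 2.14 to 4.93 in CLPs. With the TSSs of all gene types counted, the region lay nearest to Gm43352.

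Bcl11b, the commitment factor, had little called chromatin. Its promoter region (chr12:108003831-108004302, gene at chr12:107910403-108003602, minus strand), 229 bp from the TSS, was called in 7 libraries scattered over HSCs, MPP1, MPP4, GMPs and CLPs, never in all libraries of a fraction. As many libraries had the region 84.9 kb upstream (chr12:108088335-108088644), with FE of 10.4, 8.86, 12.5 and 7.81 in GMPs, 7.89 and 6.05 in 2 CLP libraries and 8.58 in 1 MPP4 library. An intronic region 41.4 kb downstream (chr12:107961853-107962206) was called in 3 GMP libraries. The remaining Bcl11b regions were called in 1 or 2 libraries.

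Cd3e had a single region (chr9:44998203-44998384), beyond the 3′ end of the gene (chr9:44998740-45009613, minus strand) and 11229 bp from its TSS. It was called in 2 of 4 CLP libraries, 1 young (FE 5.39) and 1 aged (FE 6.60), and in no other fraction. Both values were among the weaker peaks of their libraries, at the 10.1 and 23.9 percentiles of FE. The Cd3e TSS itself had no called region in any of the 36 libraries.

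**Figure D3:**
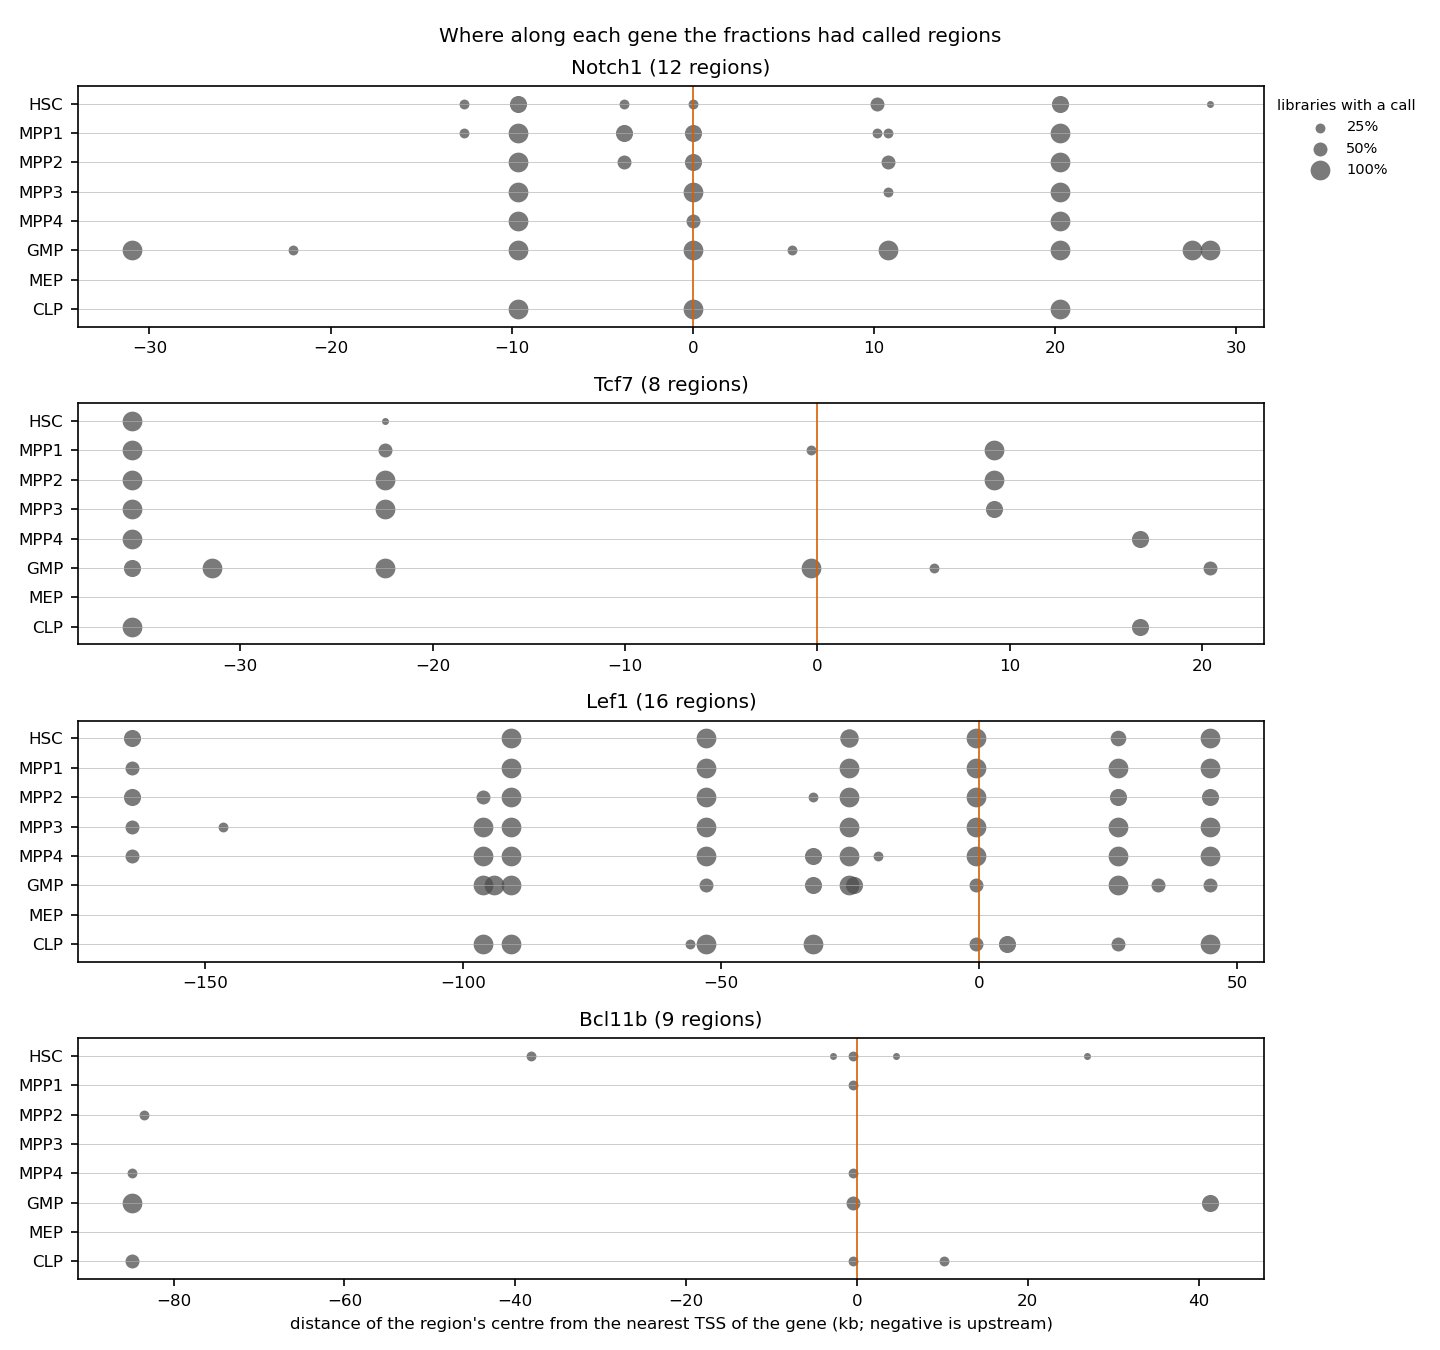
Position of each region of Notch1, Tcf7, Lef1 and Bcl11b relative to its TSS (x axis, kb, negative is upstream) by fraction (y axis); the area of a circle gives the percentage of that fraction's libraries with a call. The Tcf7 circle 16.8 kb downstream is present in MPP4 and CLPs, and the one 22.5 kb upstream is missing from both.

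The change from the stem cell to the lymphoid progenitor was tested over the whole catalogue, by comparing the calls of 4 CLP and 8 HSC libraries in each region with Fisher's exact test. Across all regions, 27.1% of the 24720 tested were called more often in CLPs and 18.2% more often in HSCs at a Benjamini-Hochberg adjusted p under 0.05. Of the 46 member regions 8 could be tested, since the others were called in none, in all, or in too few or too many libraries. Of these 8, 4 were called more often in CLPs and 1 in HSCs. The Lef1 regions 96.1 and 32.2 kb upstream were called in 4 of 4 CLP and 0 of 8 HSC libraries (Fisher's exact test, adjusted p = 0.00763 each). The Tcf7 region 16.8 kb downstream and the Lef1 region 5.3 kb downstream were called in 3 and 0 (Fisher's exact test, adjusted p = 0.0402 each). The Lef1 region 25.1 kb upstream was called in 0 of 4 and 7 of 8 (Fisher's exact test, adjusted p = 0.0294). With the 27117 strongest peaks of each library, only the Lef1 region 96.1 kb upstream (adjusted p = 0.00718) and the Tcf7 region 16.8 kb downstream (adjusted p = 0.0388, both Fisher's exact test) were called. The Lef1 region 25.1 kb upstream missed the threshold with stricter peaks (adjusted p = 0.148), with peaks that cover 50% of the region (0.162), with all regions that varied in the test (0.0626) and without aged CLP replicate 2 (0.0502, all Fisher's exact test). The Tcf7 and Lef1 regions called in 3 CLP libraries missed it with all regions that varied (adjusted p = 0.0857 each, Fisher's exact test) and in 8 of the 9 runs with 1 library left out that could test them. With peaks that cover 50% of the region the Lef1 promoter newly passed, with 0 of 4 CLP and 7 of 8 HSC libraries (Fisher's exact test, adjusted p = 0.0368). In some runs without 1 HSC library the Notch1 TSS newly passed as more often called in CLPs, or the Lef1 region 164 kb upstream in HSCs.

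The same HSC libraries served as the comparison for GMPs, so the results of these comparisons are not independent. In GMPs 61.5% of the 42956 regions tested were called more often than in HSCs and 7.71% less often. Of 16 member regions tested, 13 were called more often in GMPs and 0 in HSCs, and these included 4 Notch1, 3 Tcf7, 4 Lef1 and 2 Bcl11b regions. Adjusted p was 0.00422 for the 8 regions called in 4 of 4 GMP and 0 of 8 HSC libraries (Fisher's exact test), among them the Tcf7 promoter, the Notch1 region 31 kb upstream and the Bcl11b region 84.9 kb upstream. The Tcf7 region 22.5 kb upstream was called in 4 GMP libraries and 1 HSC library (adjusted p = 0.0183, Fisher's exact test). The count and its direction changed with the number of peaks kept. With the 27856 strongest peaks per library, 9646 regions of the catalogue were called more often in GMPs and 5994 in HSCs, against 26437 and 3314 with all peaks. Of the members 7 passed: 3 were called more often in GMPs (the Notch1 regions 31 kb upstream and 28.6 kb downstream and the Lef1 region 96.1 kb upstream) and 4 more often in HSCs (the Tcf7 region 35.6 kb upstream and the Lef1 regions 53 kb upstream, at the promoter and 44.9 kb downstream). The last 3 had 0 of 4 GMP and 8 of 8 HSC libraries (Fisher's exact test, adjusted p = 0.00496 each). With stricter peaks, 22479 of 34018 regions tested were called more often in GMPs and 2173 in HSCs. Of the members it was 11 and 2, the 2 being the Tcf7 region 35.6 kb and the Lef1 region 53 kb upstream. With peaks that cover 50% of the region, 24699 of 43444 regions tested were called more often in GMPs and 3742 in HSCs. Of the members it was 11 and 3, the 3 being the Lef1 regions 90.7 and 53 kb upstream and at the promoter.

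Lymphoid-primed cells (MPP4 and CLPs, 8 libraries) were next set against myeloid-primed cells (MPP3 and GMPs, 8 libraries). Here and in the comparison of levels below, every library counted as an independent replicate of its side, with no term for the fraction. The p-values therefore do not account for the likeness of libraries of the same fraction. Of 20106 regions tested, 0.298% were called more often on the lymphoid side and 0.199% on the myeloid side. Of 5 member regions tested, the Tcf7 region 22.5 kb upstream passed, with 0 of 8 lymphoid-primed and 8 of 8 myeloid-primed libraries (Fisher's exact test, adjusted p = 0.0312). The Tcf7 region 16.8 kb downstream had 6 of 8 and 0 of 8 and missed the threshold (adjusted p = 0.111), as did the Notch1 region 10.7 kb downstream with 0 of 8 and 5 of 8 (adjusted p = 0.146, both Fisher's exact test). With 27087 peaks per library 341 regions of the catalogue were called more often on the lymphoid side and 112 on the myeloid side, against 60 and 40 with all peaks. The Tcf7 region 22.5 kb upstream was then called in 0 and 6 libraries (Fisher's exact test, adjusted p = 0.0900), and it also missed the threshold with stricter peaks (adjusted p = 0.103), peaks that cover 50% of the region (0.0566), all regions that varied (0.116), the replicate block (0.0808) or age as a stratum (0.0811, all exact tests). With peaks that cover 50% of the region another member passed, in the opposite direction: the Lef1 region 96.1 kb upstream, which a peak touched in all 16 libraries, was then called in 8 of 8 lymphoid-primed and 0 of 8 myeloid-primed libraries (Fisher's exact test, adjusted p = 0.0317). The call of the Tcf7 region 22.5 kb upstream was lost too without young CLP replicate 1, young CLP replicate 2 or aged CLP replicate 2. In each of these runs 0 regions of the whole catalogue passed, as with all regions that varied, the replicate block and age as a stratum. For this Tcf7 region CLPs alone against GMPs alone gave 0 of 4 and 4 of 4 (adjusted p = 0.0312), where 16119 of 18967 regions tested were called more often in GMPs, and MPP4 alone against MPP3 alone 0 of 4 and 4 of 4 (adjusted p = 0.136, both Fisher's exact test).

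Levels were compared with limma on log2 FE, centred on the median of each library, in the 14189 regions called in all 16 libraries. Of these, 5.97% were higher on the lymphoid side and 4.09% on the myeloid side. The Lef1 region 90.7 kb upstream, whose sequence and values are given above, was higher in MPP4 and CLPs by 1.04 ± 0.18 (log2, SE; limma, adjusted p = 0.00264), and all 8 lymphoid-primed libraries (17.5 to 21.2) exceeded all 8 myeloid-primed ones (8.45 to 15.5). The difference was 0.76 without centring. The Notch1 intronic region 20.3 kb downstream differed by -0.30 ± 0.11 (limma, adjusted p = 0.0954), and by -0.58 without centring (adjusted p = 0.0287), a setting that moved the median of all regions to -0.26 and gave 147 regions higher on the lymphoid and 1789 on the myeloid side, against 847 and 580. The Notch1 region 9.7 kb upstream (0.26 ± 0.15, adjusted p = 0.251) and the Lef1 region 96.1 kb upstream (-0.24 ± 0.18, adjusted p = 0.391) did not pass in limma. In these sorted bulk fractions, a site open in fewer cells and a site less open in each cell cannot be told apart.

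**Figure D4:**
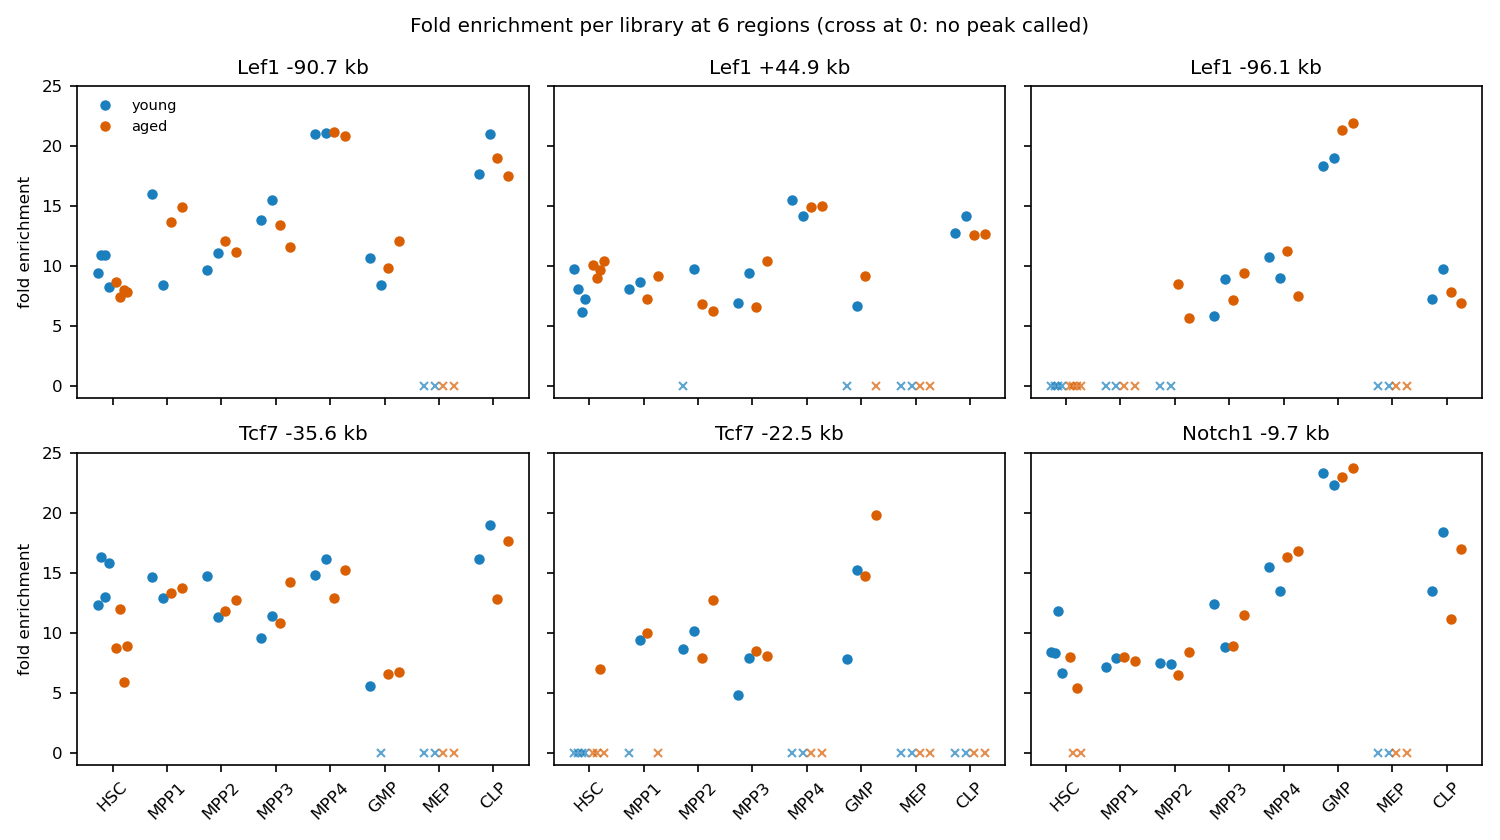
Fold enrichment (y axis) in each library, by fraction (x axis) and age, for 6 member regions; each point is 1 library and a cross at 0 stands for no call. In the Lef1 region 90.7 kb upstream the MPP4 and CLP points lie between 17.5 and 21.2, above all others, and in the Tcf7 region 35.6 kb upstream the 4 aged HSC points (5.88 to 12) lie below the 4 young ones (12.3 to 16.3).

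Age was tested over all fractions with an exact conditional test of the calls in 18 young and 18 aged libraries, with the fraction as stratum. No region of the catalogue passed in either direction (0% of 18638 for higher in aged, 0% for higher in young), although 1169 had an unadjusted p under 0.05. Of the 6 member regions that could be tested with all peaks none passed, and none had an unadjusted p under 0.05. The Notch1 TSS was called in 11 aged and 11 young libraries. The Bcl11b promoter was called in 4 and 3, and the Lef1 regions 164 kb upstream and 27 kb downstream in 6 and 9 and in 12 and 14. The Notch1 regions 3.81 kb upstream and 10.2 kb downstream were called in 2 and 5 and in 3 and 2. With 9581 peaks per library, the Lef1 promoter was called in 5 aged and 0 young libraries (exact conditional test, unadjusted p = 0.0357, adjusted p = 0.687). The Tcf7 region 35.6 kb and the Lef1 region 25.1 kb upstream were then called in 8 and 10 each, and the Lef1 region 53 kb upstream in 11 and 11.

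HSCs offered the only comparison of 4 against 4. Of 51625 regions called in HSCs, 0.430% were called in all 4 aged and no young library and 0.277% in all 4 young and no aged library. Of the 21 member regions called in HSCs none fell in either class, and the smallest exact p that 4 against 4 libraries allow is 0.0286. Both broadly open Notch1 regions, 9.7 kb upstream and 20.3 kb downstream, were called in 4 young and 2 aged HSC libraries, and the Notch1 TSS in 2 and 0. The number of Notch1 regions called was 4, 3, 4 and 4 in young and 3, 3, 2 and 0 in aged HSC libraries, so the groups overlapped at 3. The share of all regions called was 25.4% to 35.6% in young and 28.4% to 29.4% in aged HSC libraries, where the aged range lay within the young one. Whether calls in 4 young and 2 aged libraries, or such a count for 1 gene, are unusual in the catalogue was not tested.

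Levels in HSCs could be compared in 5 member regions, those called in all 8 libraries. The Tcf7 region 35.6 kb upstream had FE of 12.3, 16.3, 13 and 15.8 in young and 8.75, 12, 5.88 and 8.86 in aged HSCs. The groups did not overlap here, which was so for aged below young in 2.09% and for aged above young in 1.57% of the 17340 regions compared. On the centred log2 scale the difference was -0.71 ± 0.20 (SE; limma, unadjusted p = 0.00334, adjusted p = 0.312), and it did not pass the adjustment over all regions. It was -0.33 in replicates 1 and 2 alone and -1.08 in replicates 3 and 4 alone. The Lef1 region 44.9 kb downstream (0.36 ± 0.15, adjusted p = 0.470), that 90.7 kb upstream (-0.28 ± 0.14, adjusted p = 0.572), the promoter (-0.15 ± 0.20) and that 53 kb upstream (0.06 ± 0.14) did not pass in limma either. The Lef1 promoter differed by 0.32 in replicates 1 and 2 and by -0.62 in replicates 3 and 4. By limma no region of the catalogue passed in HSCs (0% in each direction), and 1571 had an unadjusted p under 0.05.

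The other fractions had 2 libraries per age, for which the smallest exact p is 0.333. In GMPs 4 of the 29 member regions called were found in both aged and no young libraries, against 2.83% of all regions called in GMPs, and 0 in the reverse, against 1.33%. They were the Tcf7 region 20.4 kb downstream and the Lef1 regions 53 kb upstream, at the promoter and 34.7 kb downstream. In this order, their GMP calls lay at percentiles of FE of 9.98 to 33.8, 6.65 to 24.1, 5.73 to 16.3 and 36.1 to 40.6. Both aged GMP libraries also had more member regions called in all (27 and 24, against 19 and 21 in young ones). Of all regions they had 56.3% and 55.9% called, against 48.4% and 58.5% in young ones, so the groups overlapped there. In CLPs the Lef1 promoter was called in both aged and no young libraries (1.98% of all regions) and the Lef1 region 27 kb downstream in both young and no aged libraries (2.88%). Their CLP calls lay at percentiles of FE of 2.14 to 4.93 and of 9.19 to 16.9. In MPP2 the Notch1 region 10.7 kb downstream and the Lef1 region 96.1 kb upstream were called in aged libraries only (3.60%) and the Notch1 region 3.81 kb upstream in young ones only (2.09%). In MPP3 this was so of the Lef1 region 164 kb upstream, in young libraries (3.83%), and of 0 members in aged ones (0.842%). MPP1, MPP4 and MEPs had no such member region, where all regions called in them had 3.52%, 2.54% and 3.21% in aged and 1.62%, 2.69% and 1.83% in young libraries only.

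Levels over all fractions could be compared by limma in no member region, since none was called in MEPs. Without MEPs, the Lef1 region 90.7 kb upstream was the only member called in all 32 libraries, and aged and young libraries differed by -0.01 ± 0.08 (log2, SE; limma, adjusted p = 0.989).

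The genes that act with these 5 gave a background for the CLP values. Of 29 tested regions near 18 genes of the T cell receptor complex and its signalling, 16 were called more often in CLPs and 1 in HSCs, where the catalogue had 27.1% and 18.2%. Of 47 regions of the same list tested between GMPs and HSCs, 39 were called more often in GMPs and 1 in HSCs, where the catalogue had 61.5% and 7.71%. The TSS region of Lck, the kinase that starts T cell receptor signalling, was called in 3 CLP libraries and in no other fraction, and that of Cd247, which encodes the CD3 zeta chain, in 1 CLP library only. Near 14 T specification factors 28 of 87 regions were higher in CLPs and 19 in HSCs, with 4 and 3 of 10 at Gata3, a factor that acts with Tcf7 in early T cells. Near 8 Notch target genes the numbers were 6 and 6 of 26, near 4 genes of the nuclear Notch complex 10 and 3 of 24, near 7 TCF/LEF relatives and cofactors 11 and 5 of 43, near the other Notch receptors 3 and 2 of 10, near Notch ligands 0 and 2 of 8, and near 10 genes that process the receptor 0 and 0 of 5. In the lymphoid-primed against myeloid-primed comparison of calls and in that of age, no region of these lists passed the exact tests.

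Across the 16 groups of fraction and age, the genes whose mean share of called regions was most like that of Notch1 were Myrip, Ccdc80 and Capzb (Pearson r = 0.97 each, of 7320 genes). For Tcf7 they were Slc27a3 (0.95), Rbm46 and Prkca (0.94 each), and for Lef1 Cmas, Tnfrsf1b and Lfng (0.96 each). Bcl11b was most like Prom1 (0.92), Msr1 and Atg5 (0.91 each), and Cd3e most like Frmpd4 (0.96). Among the members themselves r was 0.88 for Notch1 and Tcf7, 0.74 for Tcf7 and Lef1 and 0.69 for Notch1 and Lef1. Bcl11b had r of 0.71 with Notch1, 0.46 with Tcf7 and 0.36 with Lef1, and r was between -0.13 and 0.18 for Cd3e with the others. All values of r for Cd3e rested on its only region, called in 1 young and 1 aged CLP library and in no other fraction. The number of peaks per library differed between the groups, and its part in these values of r was not tested.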

How the data were processed

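ATAC-seq was done on sorted fractions by the authors with single reads of 60 bp. Reads were aligned to mm10 with Bowtie2 and libraries were brought to the same read number with SAMtools, per the submitters' processing notes and the methods of the study, and peaks were called in each library with MACS2 2.2.6 (no model, q limit 0.001). The deposited peak files give the fold enrichment of each summit (a ratio), the −log10 of its p-value and q-value, and a display score; read counts were not used here, and the count model of the study was not run. Fold enrichment was used as level, and the −log10 q-value to rank peaks. The read number shared by the libraries is not given in the sources used here, and the number of peaks of a library limits what can be called.

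Peaks were merged and assigned with Python 3.11.15, numpy 2.4.6 and pandas 2.3.3 and GENCODE TSSs (mouse release 21) of mm10. All region ends lay within the chromosomes of the GRCm38 reference, from which sequences were read. Calls were compared with Fisher's exact test, two-sided, or for age with the exact conditional test with fraction as stratum, over regions whose calls allow an unadjusted p under 0.05, with Benjamini-Hochberg adjustment over all of them. Fold enrichment was compared with limma 3.58.1 in R 4.3.3 on log2 values without a pseudocount. The statistics were tested on simulated data. The regions named in full were the one at or nearest the TSS, the one called in the most libraries and those that passed a test, at most 6 per gene and comparison, and others were named after their values were seen. The members and gene lists were chosen with earlier results of these data known. Alternatives were stricter peaks (−log10 q of at least 10), peaks covering 50% of a region, equal numbers of peaks, other sets of tested regions, a replicate block and leaving out each library. The C/EBP motif, the runs without MEPs, the equal peak numbers without MEPs and the division by a library's median were added after seeing the data.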

Additional observations from a re-analysis of the deposited data

Results flagged for a closer look

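In 25 values the gap between an extreme library and the rest was examined, which by chance marks about 1 in 20 groups of 4 libraries when values are continuous. Marked in this way were the number of Tcf7 regions called in aged HSCs (1, 1, 2 and 1, with 2.00 in replicate 3), of Lef1 regions in aged HSCs (7, 6, 6 and 6, with 7 in replicate 1), of Notch1 regions in young HSCs (4, 3, 4 and 4, with 3.00 in replicate 2) and of Lef1 regions in young HSCs (6, 7, 6 and 6, with 7 in replicate 2). Each of these gaps is a single region, and for whole counts that differ by 1 the gap equals the whole range, so the rate of 1 in 20 does not apply to them.

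Aged and young libraries differed in opposite directions in GMPs and MPP3, in comparisons of 2 against 2 libraries whose smallest exact p is 0.333. Lef1 had 6 and 8 regions called in young and 11 and 9 in aged GMP libraries, a mean difference (aged minus young) of 3.00, and 9 and 8 in young and 7 and 7 in aged MPP3 libraries, a difference of -1.50. Over all member regions the difference was 5.50 in GMPs (19 and 21 in young, 27 and 24 in aged libraries) and -1.50 in MPP3 (15 and 14 in young, 13 and 13 in aged libraries). Whether these differences differ from each other was not tested, and no region passed the test of age over all fractions with all peaks. The share of all regions called was 48.4% and 58.5% in young and 56.3% and 55.9% in aged GMP libraries, so that young replicate 2 lay above both aged libraries. In MPP3 it was 31.7% and 32% in young and 25% and 29.9% in aged libraries. The part of this share in the result was not tested.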

How the results depend on the processing

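The labels share replicate numbers between groups, but the deviations of same-numbered libraries had a median correlation of 0.01 (-0.05 to 0.26) over 120 pairs of groups, so a shared number was not taken as a pairing. The 7 pairs over 0.1 were all between MPP groups, such as young MPP3 and young MPP4 (0.26) and aged MPP1 and aged MPP2 (0.25). Of the 28 pairs among MPP3, MPP4, GMPs and CLPs 3 were over 0.1, and the labels do not say whether some MPP libraries share a batch. With the replicate block, 0 regions and 0 member regions passed in the lymphoid-primed against myeloid-primed calls (19796 regions tested), and 1 region in the fold enrichment by age over fractions (paired analysis by strata or as a factor in limma). The calls of CLPs and of GMPs against HSCs could not be tested with the block, since no region could reach an unadjusted p under 0.05 there. The cause of each change below was not tested.

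With stricter peaks, 0 member regions passed between lymphoid-primed and myeloid-primed cells and 1 between CLPs and HSCs, 229 regions did not overlap between ages in HSCs (365 in the report's setting), 1 region passed by age over fractions and 6 in HSCs in limma, and 902 between lymphoid-primed and myeloid-primed cells in limma. The shares of member regions called were then 15.2% (HSC), 21.2% (MPP1), 18.5% (MPP2), 21.7% (MPP3), 22.8% (MPP4), 36.4% (GMP) and 19% (CLP). With 9581 peaks per library they were 4.62%, 8.15%, 5.98%, 6.52%, 13.6%, 6.52% and 9.78%, and with 27087 peaks and no MEPs 20.1%, 23.4%, 23.4%, 25.5%, 25%, 14.7% and 21.7%. Equal peak numbers gave 1 region by age, 453 regions and 0 members between lymphoid-primed and myeloid-primed cells, 2 members between CLPs and HSCs, and 15640 regions and 7 members between GMPs and HSCs. With all regions that varied in the test, 0 regions and 0 members passed in the lymphoid-primed comparison, and 6541 regions and 2 members between CLPs and HSCs. With age as a stratum, and for MPP4 alone against MPP3 alone, 0 regions and 0 members passed, and CLPs alone against GMPs alone gave 17392 regions (16119 called more often in GMPs and 1273 in CLPs, of 18967 tested) and 9 members, all called more often in GMPs. In limma the mean of the summits gave 1 region by age, leaving out MEPs 2 regions, and no centring 2 members between lymphoid-primed and myeloid-primed cells. With TSSs of all gene types, 26 regions stayed with the 5 genes, and none with Cd3e.

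Leaving out each library in turn gave 0 to 5 regions by age; 0 to 188 regions and 0 to 1 members in the lymphoid-primed comparison; 6952 to 9761 regions and 2 to 4 members for CLPs against HSCs (11186 and 5 with all libraries); 24531 to 30829 regions and 10 to 14 members for GMPs against HSCs; 491 to 708 non-overlapping regions in HSCs; 0 to 2 regions by age in limma; and 784 to 2332 regions and 1 to 2 members (2 without young GMP replicate 2) in the lymphoid-primed comparison in limma. Of the alternatives of the named regions, 384 kept direction and side of the threshold, 34 no longer passed, 1 newly passed and 4 values with no test moved. The Tcf7 region 22.5 kb upstream had adjusted p of 0.0808 with the replicate block and 0.103 with stricter peaks, and 0.0312 to 0.136 over its alternatives other than leaving out a library (exact tests).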
